A study of Mus musculus with 32 samples.

Results

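The genes that load, hold and release calcium in the sarcoplasmic reticulum were followed in brain arteries of mice without Notch3 and of mice carrying a mutation of Notch3 that causes CADASIL, an inherited disease of small brain arteries. The 10 genes were Pln, Casq1, Casq2, Atp2a2, Atp2a3, Ryr2, Ryr3, Itpr1, Jph2, and Stim1. They were chosen by gene name and known role, with earlier results of these data in view in which Pln was lower in Notch3-/- arteries. All 10 were found among the 55357 genes of the count table, and all 10 passed the filter on low counts in each comparison. Because the choice was made with the Notch3-/- result known, values of that contrast are given as a description and nothing is read from them.

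Each of 32 mice gave 1 bulk RNA library from its dissected brain arteries, and the 4 groups had 8 mice each. Notch3-/- mice lack functional Notch3 in all cells and were compared with Notch3+/+ mice, both aged 3 months. TgNotch3R169C mice carry rat Notch3 with the R169C mutation, on an artificial chromosome integrated in the X chromosome, in addition to the intact mouse gene, and were compared with WT mice without the transgene, both aged 12 months. Controls were littermates of the mutants. Both lines are on a C57BL/6 background and both sexes were used for the transgenic line. The Notch3+/+ and WT groups differ in age and in mouse line at once, so age and line cannot be told apart.

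In an arterial smooth muscle cell, SERCA pumps (Atp2a genes) move calcium from the cytosol into the sarcoplasmic reticulum, and phospholamban holds the pump back until it is phosphorylated. Calsequestrins buffer the stored calcium, and ryanodine and inositol trisphosphate (IP3) receptors let it out. Junctophilins tether the reticulum to the plasma membrane, and STIM proteins sense an empty store and open calcium entry. In brain arteries, local release through ryanodine receptors opens potassium channels and relaxes the muscle, whereas release through IP3 receptors favours contraction.

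Total counts per library ranged from 20289487 to 54481934. Levels are given as CPM, counts per 1000000 counts of the library after TMM scaling over all 32 libraries. Notch3 lay between 13.7 and 18.5 CPM in Notch3-/- libraries against 65.8 to 98.1 CPM in Notch3+/+ libraries, and between 108.0 and 218.8 CPM in TgNotch3R169C libraries against 60.1 to 85.0 CPM in WT libraries, so every library matched its label. The libraries differed in cell type markers. The summed level of 9 smooth muscle markers (Acta2, Myh11 and others) ranged from 2787 to 4900 CPM in Notch3+/+, from 1909 to 2931 CPM in Notch3-/-, from 1565 to 2392 CPM in WT, and from 1311 to 2009 CPM in TgNotch3R169C arteries. Purkinje cell markers (Pcp2, Car8, Calb1, Ppp1r17) summed to 227.3 and 239.1 CPM in WT replicates 6 and 7 and to at most 94.7 CPM elsewhere. Choroid plexus markers summed to more than 5000 CPM in 7 libraries (4 WT, 2 TgNotch3R169C and 1 Notch3-/-). Skeletal muscle markers summed to 4.34 to 16.8 CPM and cardiac muscle markers to 2.31 to 9.86 CPM over all libraries. In bulk arteries, fewer cells of a type and less RNA per cell cannot be told apart.

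Compared between genes as mean CPM per kb of exon, the pump gene Atp2a2 led and the calsequestrin gene Casq1 closed the list. Atp2a2, which encodes SERCA2, averaged 74.4 CPM per kb over the 32 libraries and was above Atp2a3 (SERCA3, 28.0 CPM per kb) in 32 of 32. Itpr1, the type 1 IP3 receptor, averaged 24.3, Pln 21.8, and Stim1, the main store sensor, 16.5 CPM per kb. These 4 genes below Atp2a2 changed places between libraries: Atp2a3 was above Itpr1 in 23 of 32, Itpr1 above Pln in 23, and Pln above Stim1 in 22. Jph2, the junctophilin of muscle, averaged 4.83 CPM per kb, below Stim1 and above Ryr2 in all 32 libraries. Ryr2 and Ryr3 averaged 1.35 and 0.75, Casq2 0.98, and Casq1 0.31 CPM per kb. Ryr2 was above Casq2 in 24 libraries and Casq2 above Ryr3 in 19, so the order of these 3 was not fixed. Casq1, the calsequestrin of fast skeletal muscle, rested on only 4 to 47 reads per library.

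**Figure D1:**
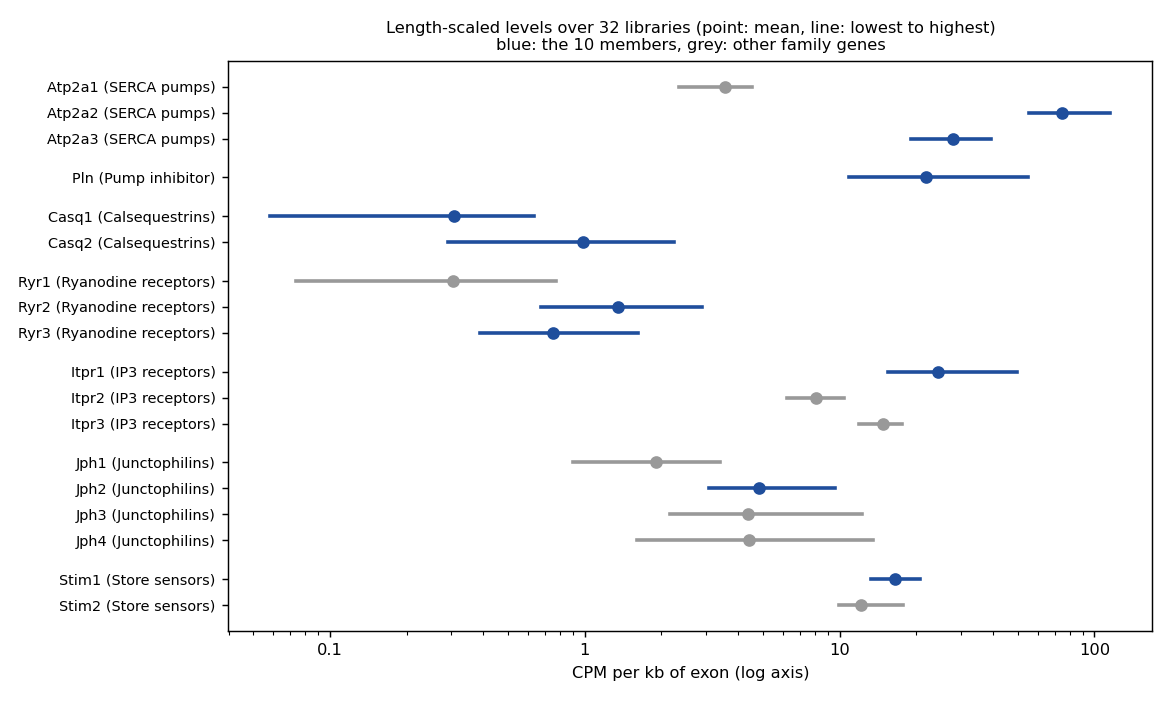
Level of the 10 genes (blue) and of other genes of the same families (grey), as CPM per kb of exon on a log axis. Points are means over 32 libraries and lines run from the lowest to the highest library. Atp2a2 leads with 74.4 CPM per kb, and Casq1 (0.31) and Ryr1 (0.30) have the lowest means.

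Within families, one paralog carried most of the reads per kb in some cases and several shared them in others. Atp2a2 made up 61.2% to 83.9% of the SERCA signal per library, and Atp2a1, the pump of fast skeletal muscle, at most 4.68%. Itpr1 had a median share of 49.7% of the IP3 receptor signal in Notch3+/+ arteries, beside 31.8% for Itpr3 and 18.4% for Itpr2. Jph2 had a median of 47.8% of the junctophilin signal in Notch3+/+, 32.8% in Notch3-/-, 28.7% in WT, and 24.3% in TgNotch3R169C arteries, with Jph3 and Jph4, the junctophilins of neurons, taking most of the rest. Ryr2 had a median of 64.2% of the ryanodine receptor signal in Notch3+/+ and 50.8% in TgNotch3R169C arteries, and Ryr1, the receptor of skeletal muscle, 8.37% and 15%. Sln, which encodes the pump inhibitor sarcolipin, averaged 0.053 CPM and was not tested, so of these 2 inhibitors only Pln had an appreciable level.

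In Notch3-/- arteries, Pln, Casq2, and Jph2 were lower than in Notch3+/+ arteries, and the other 7 genes were not called. A gene was called when its adjusted p, by edgeR's quasi-likelihood test over 17714 genes, was below 0.05. The background in this contrast is 0.649% of genes called in either direction and 0.452% called lower. The 3 of 10 genes called stand beside these shares as a description only, since Pln was known when the list was drawn up. The median log2 fold change of the 10 genes was -0.13, beside -0.0011 over all genes tested.

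Pln encodes phospholamban, the brake on SERCA2. Its level was 72.6 to 151.2 CPM (median 94.8) in Notch3+/+ libraries and 30.2 to 52.6 CPM (median 38.4) in Notch3-/- libraries. Every Notch3-/- library lay below the lowest control, and the Notch3-/- mean was 40.3% of the control mean. The log2 fold change was -1.31 (SE 0.16, 95% CI -1.65 to -0.97). Since Atp2a2 was 395.7 to 494.1 CPM in Notch3+/+ and 336.5 to 504.3 CPM in Notch3-/- libraries, with a log2 fold change of -0.09 (95% CI -0.26 to 0.07), the ratio of Pln to Atp2a2 per kb moved with Pln. This ratio of inhibitor to pump transcripts had a median of 0.49 (range 0.32 to 0.68) in Notch3+/+ and 0.22 (0.14 to 0.29) in Notch3-/- arteries. Within groups, Pln varied with the smooth muscle markers (Pearson r = 0.90) and Atp2a2 did not (r = -0.24). The ratio in bulk arteries is therefore not that of a single cell type, and the part of smooth muscle content in it was not tested.

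Casq2 encodes the calsequestrin of cardiac and smooth muscle, a calcium buffer of the store. It was 2.02 to 4.15 CPM (median 3.62) in Notch3+/+ and 0.80 to 1.53 CPM (median 1.35) in Notch3-/- libraries. These ranges did not overlap either, and 7 of the 8 control libraries were at 3.46 CPM or higher, with Notch3+/+ replicate 2 alone at 2.02 CPM. The log2 fold change was -1.51 (SE 0.16, 95% CI -1.85 to -1.16), the largest of the 10 genes in this contrast. Non-overlapping ranges were found for 0.322% of all genes tested in this contrast. Casq1 was 0.37 to 1.01 CPM in Notch3+/+ and 0.32 to 1.19 CPM in Notch3-/- libraries, so the share of Casq2 in the calsequestrin signal per kb had a median of 81.1% in Notch3+/+ and 61.4% in Notch3-/- arteries.

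Jph2 showed a smaller difference. It was 22.2 to 40.7 CPM (median 28.4) in Notch3+/+ and 16.9 to 25.9 CPM (median 19.2) in Notch3-/- libraries. The ranges overlapped, and 7 of 8 Notch3-/- libraries lay below the lowest control. The log2 fold change was -0.56 (SE 0.11, 95% CI -0.80 to -0.32). This call was lost when Notch3+/+ replicate 5, 6 or 7 or Notch3-/- replicate 2, 3, 4, 6, 7 or 8 was left out, with log2 fold changes of -0.57 to -0.52. Pln and Casq2 were called in 16 of 16 such fits, which is a description too, since the genes were chosen with this contrast known.

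The RefSeq windows around the transcription start of these 3 genes (250 bases before to 50 after, GRCm38.p6) are shown because they are the members called in Notch3-/- arteries. Windows were held for 7 of the 10 genes, 8 windows in all. Capitals mark the RBPJ core TGGGAA, the TATA motif TATAAA, and the MEF2 site, each searched on both strands together with the E-box CANNTG and the CArG box, and the marked motifs did not overlap.
Pln, chr10:53337436-53337735, plus strand: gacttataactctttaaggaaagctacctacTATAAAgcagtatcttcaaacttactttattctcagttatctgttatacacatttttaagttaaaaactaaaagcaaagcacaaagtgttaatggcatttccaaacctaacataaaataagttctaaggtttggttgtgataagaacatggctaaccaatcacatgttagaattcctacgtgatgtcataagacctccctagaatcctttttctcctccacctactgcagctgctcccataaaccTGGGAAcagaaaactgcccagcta
Casq2, chr3:102086165-102086464, plus strand: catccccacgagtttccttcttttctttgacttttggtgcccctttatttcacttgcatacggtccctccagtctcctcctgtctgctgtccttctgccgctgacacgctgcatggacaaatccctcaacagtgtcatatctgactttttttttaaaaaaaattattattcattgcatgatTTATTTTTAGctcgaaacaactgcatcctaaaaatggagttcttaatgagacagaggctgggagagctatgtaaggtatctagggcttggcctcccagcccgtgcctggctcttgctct
Jph2, chr2:163397944-163398243, minus strand: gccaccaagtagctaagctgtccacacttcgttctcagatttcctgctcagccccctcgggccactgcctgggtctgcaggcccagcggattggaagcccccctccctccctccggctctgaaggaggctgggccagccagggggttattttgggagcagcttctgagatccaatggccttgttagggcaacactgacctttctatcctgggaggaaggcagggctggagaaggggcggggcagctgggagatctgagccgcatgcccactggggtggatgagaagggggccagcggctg
The Pln window holds 1 RBPJ core, at position 27 after the start, and 1 TATAAA at position -219. An RBPJ core occurs in 25.6% and a TATAAA in 13.6% of all 32851 windows. The Casq2 window holds 1 MEF2 site at position -69, a motif found in 3.19% of all windows. The Jph2 window holds none of these 3 motifs. All 3 hold an E-box, as do 72.3% of all windows, and no CArG box (1.63% of all windows) was found in any member's window. GC content was 36.0% for Pln, 44.7% for Casq2, and 63.0% for Jph2, beside a median of 52.7% over all windows. A match is a run of letters and not a binding site.

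The 7 other genes overlapped widely between Notch3-/- and Notch3+/+ arteries. Ryr2, the ryanodine receptor of heart and smooth muscle, was 23.9 to 82.8 CPM (median 39.4) in Notch3+/+ and 19.4 to 56.5 CPM (median 25.7) in Notch3-/- libraries. Its log2 fold change of -0.33 had a 95% CI of -0.92 to 0.25, too wide to tell a large fall from no change. Ryr3, a receptor of brain and smooth muscle, was 8.89 to 13.6 CPM and 7.36 to 22.0 CPM in the same groups, a log2 fold change of 0.19 (95% CI -0.19 to 0.57). Itpr1 was 330.1 to 577.4 CPM in Notch3+/+ and 282.6 to 583.5 CPM in Notch3-/- libraries, a log2 fold change of -0.17 (95% CI -0.47 to 0.14). The intervals were narrow for Stim1 (log2 fold change -0.04, 95% CI -0.20 to 0.11) and Atp2a3 (0.08, -0.16 to 0.32) and wide for Casq1 (0.14, -0.44 to 0.72).

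**Figure D2:**
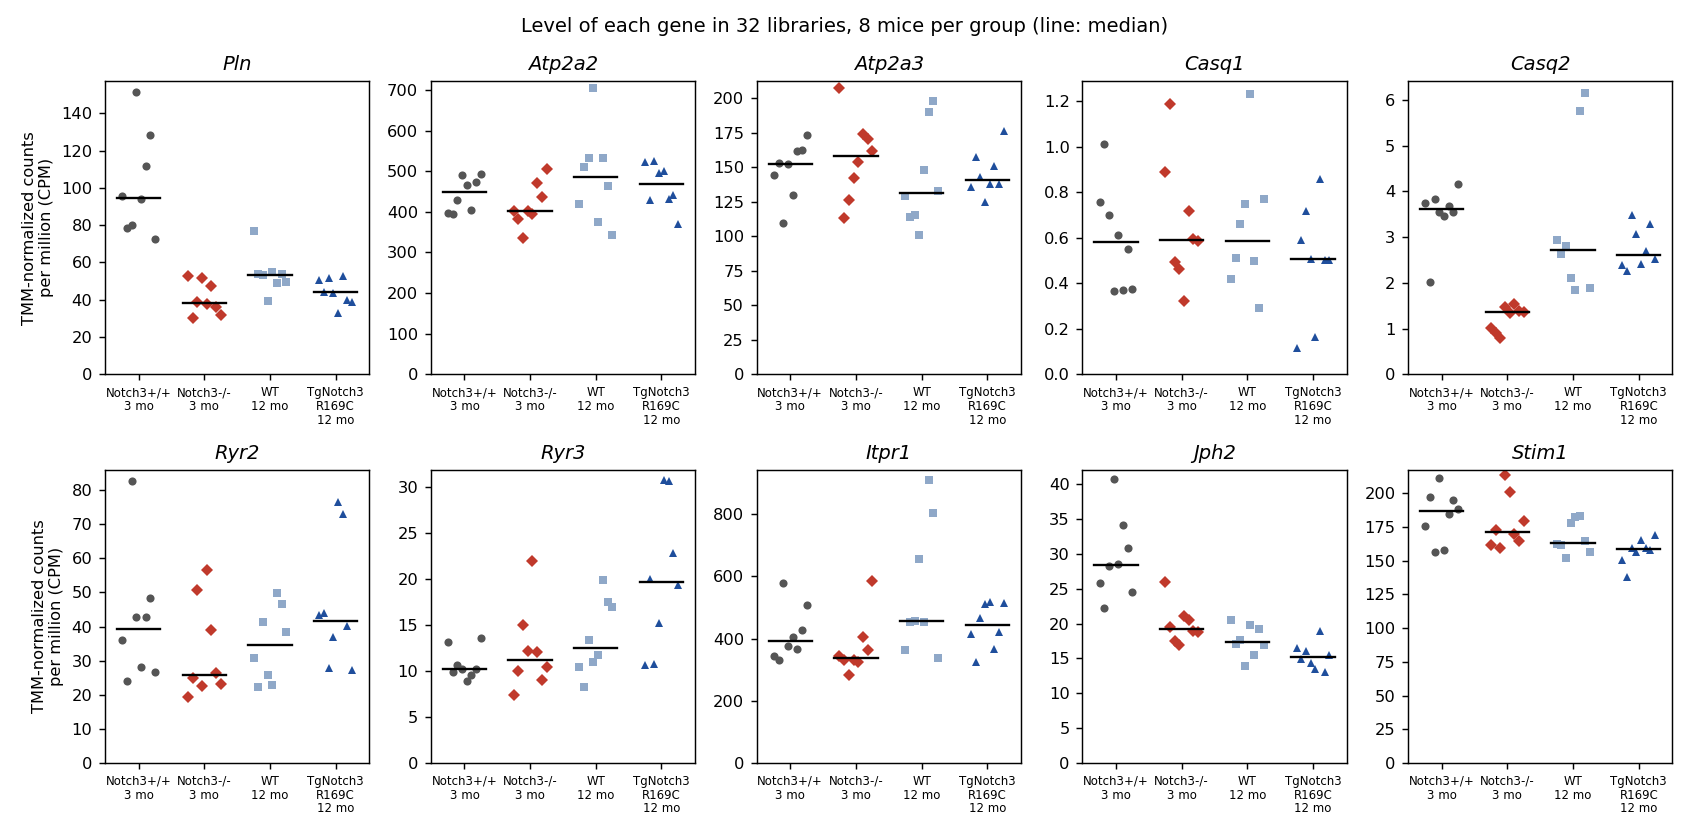
Level of each gene in every library, in CPM on a linear axis starting at 0, by group; points are mice and lines are group medians. Pln and Casq2 of Notch3-/- mice lie wholly below Notch3+/+ mice, and Jph2 of WT mice lies wholly below Notch3+/+ mice. WT replicates 6 and 7 stand above the other WT mice for Casq2, Itpr1, and Atp2a3.

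In TgNotch3R169C arteries, none of the 10 genes was called against WT arteries. By edgeR's quasi-likelihood test over 17731 genes, 0 of 10 had an adjusted p below 0.05, and DESeq2 also called 0. The background is 0.113% of genes called. The ranges of the 2 groups overlapped for each of the 10 genes, and 0.141% of all genes tested had ranges that did not. At an unadjusted p below 0.05, 3 of the 10 genes (Pln, Ryr3, and Jph2) passed, beside 1289 of all genes tested. The median log2 fold change of the 10 genes was -0.14, beside -0.0074 over all genes.

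Pln was 39.4 to 76.9 CPM (median 53.3) in WT and 32.8 to 52.6 CPM (median 44.0) in TgNotch3R169C libraries. All 8 TgNotch3R169C libraries lay below the WT median, but only 2 lay below the lowest WT library. The log2 fold change was -0.28 (SE 0.12, 95% CI -0.54 to -0.02, adjusted p = 0.679 by edgeR). Jph2 was 13.9 to 20.4 CPM (median 17.3) in WT and 13.1 to 19.0 CPM (median 15.2) in TgNotch3R169C libraries, a log2 fold change of -0.19 (SE 0.09, edgeR adjusted p = 0.679). The smooth muscle markers leaned the same way, with 9 of 9 log2 fold changes negative (median -0.22) and 0 of 9 called. With the mean level of that marker list as a covariate, the log2 fold change was -0.03 for Pln and -0.02 for Jph2.

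Among the 10 genes, the ryanodine receptor genes Ryr3 and Ryr2 had the largest positive log2 fold changes in TgNotch3R169C arteries. Ryr3 was 8.31 to 19.96 CPM (median 12.5) in WT and 10.7 to 30.8 CPM (median 19.7) in TgNotch3R169C libraries, and 4 TgNotch3R169C libraries exceeded the highest WT library. Its log2 fold change was 0.55 (SE 0.24, 95% CI 0.05 to 1.05, edgeR adjusted p = 0.679). Ryr2 was 22.2 to 49.9 CPM in WT and 27.2 to 76.4 CPM in TgNotch3R169C libraries, a log2 fold change of 0.40 (95% CI -0.10 to 0.90). Neuron markers, 8 genes such as Snap25 and Syt1, summed to 201.9 to 681.9 CPM (median 405.0) in WT and 334.7 to 1066 CPM (median 555.5) in TgNotch3R169C libraries. With the mean of these markers as a covariate, the log2 fold change was 0.25 for Ryr3 and 0.03 for Ryr2.

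Casq2 and Itpr1 depended on WT replicates 6 and 7. Casq2 was 1.85 to 6.14 CPM (median 2.72) in WT and 2.26 to 3.49 CPM (median 2.60) in TgNotch3R169C libraries, and WT replicates 6 and 7 stood at 5.76 and 6.14 CPM while the other 6 WT libraries were at 2.93 CPM or lower. Itpr1 was 336.2 to 910.5 CPM in WT and 323.4 to 518.5 CPM in TgNotch3R169C libraries, again with WT replicates 6 and 7 highest, at 910.5 and 804.0 CPM. The log2 fold change of Casq2 was -0.24 (95% CI -0.76 to 0.29) with all libraries and 0.22 without those 2. For Itpr1 it was -0.33 (95% CI -0.73 to 0.07) and -0.04. These 2 libraries also have the highest Purkinje cell marker sums, and WT replicate 6 is rich in choroid plexus markers too (13132 CPM). The part of either tissue in these values was not tested. The pumps, Stim1, and Casq1 gave log2 fold changes of -0.06 (Atp2a2, 95% CI -0.33 to 0.20), 0.04 (Atp2a3, -0.22 to 0.31), -0.09 (Stim1, -0.19 to 0.0014), and -0.35 (Casq1, -1.09 to 0.38). Atp2a3 was also highest in WT replicates 6 and 7, at 190.3 and 198.2 CPM, with the other WT libraries at 148.2 CPM or lower.

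**Figure D3:**
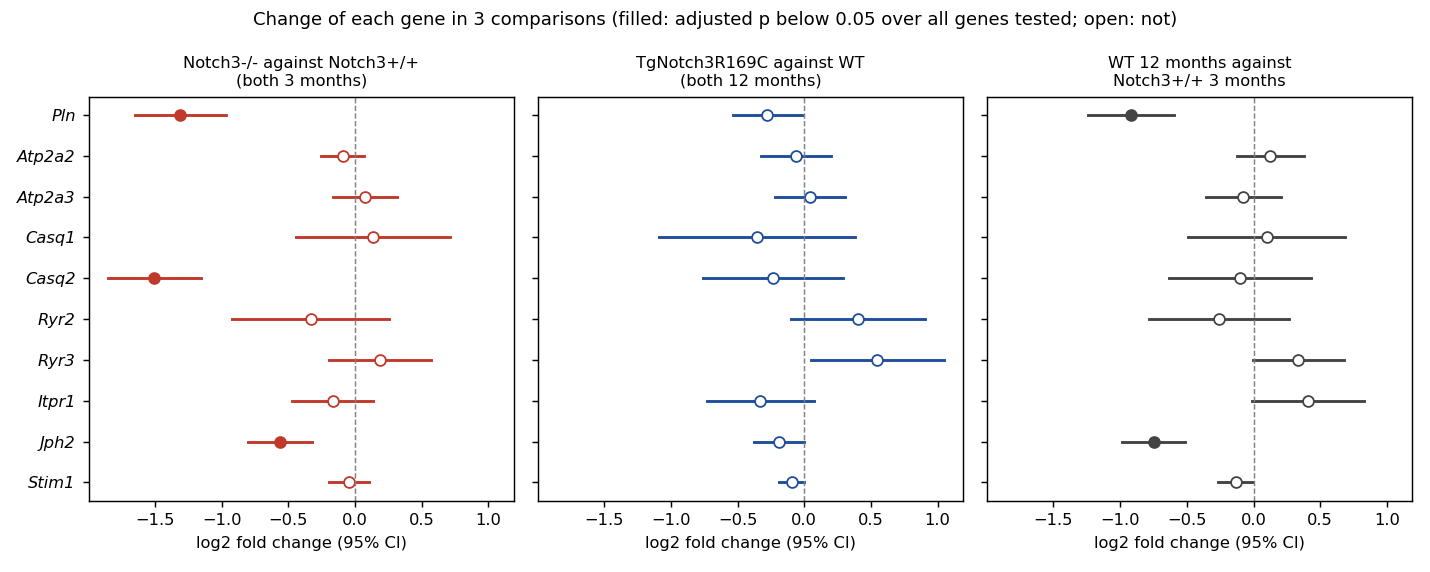
Log2 fold change of each gene with its 95% confidence interval in 3 comparisons of 8 against 8 mice; filled points were called at an adjusted p below 0.05 over all genes tested. Pln, Casq2, and Jph2 were called in Notch3-/- mice, no gene was called in TgNotch3R169C mice, and Pln and Jph2 were called between the control groups.

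Whether the change in TgNotch3R169C arteries differed from that in Notch3-/- arteries was fitted as an interaction over all 32 libraries and 18555 genes, of which 0.35% were called. This contrast holds the Notch3-/- values, so it is also given as a description. Pln was called, with a difference (TgNotch3R169C change minus Notch3-/- change) of 1.03 on the log2 scale (SE 0.21, 95% CI 0.61 to 1.45). For Casq2 the difference was 1.27 (SE 0.30, 95% CI 0.65 to 1.89) and was not called with all libraries. Without WT replicates 6 and 7 it was 1.73 and was called. The other differences were 0.37 (95% CI 0.07 to 0.67) for Jph2, 0.74 (-0.03 to 1.51) for Ryr2, and between -0.50 and 0.37 for the remaining 6 genes, none of them called. Without the 7 libraries rich in choroid plexus markers, the Pln difference was 0.95 and was not called. In the same contrast 8 of 9 smooth muscle markers had positive differences (median 0.40), with 1 called, and with their score as a covariate the Pln difference was 0.58.

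Between the control groups, Pln and Jph2 were lower in WT arteries at 12 months than in Notch3+/+ arteries at 3 months, and Casq2 was not called. The Notch3+/+ libraries here are those of the Notch3-/- comparison and the WT libraries those of the TgNotch3R169C comparison, so the comparisons are not independent. Over 17643 genes, 7.92% were called and 4.05% were called lower, beside 2 of 10 called lower here. Pln differed by -0.92 on the log2 scale (SE 0.15, 95% CI -1.24 to -0.60, edgeR adjusted p = 0.00221), and 7 of 8 WT libraries lay below the lowest Notch3+/+ library. For Jph2 the log2 fold change was -0.75 (SE 0.11, 95% CI -0.98 to -0.51, edgeR adjusted p = 0.00112), with all 8 WT libraries (13.9 to 20.4 CPM) below all 8 Notch3+/+ libraries (22.2 to 40.7 CPM). Such a separation was found for 1.24% of genes tested. The 9 smooth muscle markers were all called lower in the same comparison, with a median log2 fold change of -0.78. With their mean as a covariate the values were 0.09 for Pln and -0.02 for Jph2, neither called. The marker sums of these 2 groups did not overlap (2787 to 4900 CPM in Notch3+/+ and 1565 to 2392 CPM in WT). This fit therefore cannot separate the markers from the group, and nothing is concluded from the lost calls. Without the choroid plexus-rich libraries, which leaves 4 WT libraries, Pln was at -0.80 and was not called.

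The log2 fold change of Casq2 was -0.10 (SE 0.25, 95% CI -0.64 to 0.43, edgeR adjusted p = 0.848) between the control groups. WT libraries lay on both sides of the Notch3+/+ range of 2.02 to 4.15 CPM, 2 below and 2 above it. Itpr1 had a log2 fold change of 0.41 (95% CI -0.01 to 0.83, edgeR adjusted p = 0.220) and of 0.12 without WT replicates 6 and 7. Ryr3 had 0.34 (95% CI -0.0039 to 0.68, edgeR adjusted p = 0.212), and Stim1 -0.13 (95% CI -0.26 to -0.0029, edgeR adjusted p = 0.196). Ryr2, Atp2a2, Atp2a3, and Casq1 gave -0.26, 0.13, -0.08, and 0.10. The ratio of Pln to Atp2a2 per kb had a median of 0.24 (range 0.12 to 0.40) in WT and 0.22 (0.14 to 0.27) in TgNotch3R169C arteries. Both ranges overlapped that of Notch3-/- arteries, and the WT range also overlapped that of Notch3+/+ arteries (0.32 to 0.68).

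The levels of Pln and Jph2 were also set against the smooth muscle marker sum of the same library, as a description. Pln was 2.57% to 3.44% of the smooth muscle marker sum (median 2.73%) in Notch3+/+, 2.28% to 3.23% (median 2.58%) in WT, and 2.33% to 2.78% (median 2.51%) in TgNotch3R169C libraries. In Notch3-/- libraries it was 1.5% to 2.03% (median 1.78%), below every library of the other 3 groups. Jph2 was 0.66% to 0.98% of that sum in Notch3-/- libraries, within a span of 0.73% to 1.03% over the others except for the lowest Notch3-/- library. For Casq2 the share was 0.035% to 0.072% in Notch3-/- and 0.067% to 0.149% in Notch3+/+ libraries. It was 0.077% to 0.309% in WT and 0.125% to 0.192% in TgNotch3R169C libraries. Within groups Casq2 did not vary with the smooth muscle markers (Pearson r = 0.09), so its share is not an adjustment for smooth muscle content. In Notch3-/- arteries, 7 of the 9 smooth muscle markers were called lower (median log2 fold change -0.63). With their mean as a covariate, the log2 fold changes were -0.53 for Pln, -1.43 for Casq2, and -0.09 for Jph2, and 0 of the 10 genes were called. The marker sums of the 2 groups barely overlapped, and their part in the Notch3-/- values was not tested beyond this fit.

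Within groups, the 10 genes varied with different cell markers. Correlations were taken between log2 CPM deviations from the group mean over 32 libraries and are given without a test. All genes of a library share its dissection and its depth, and total counts differed between libraries. Pln followed the smooth muscle markers (Pearson r = 0.90, Spearman rho = 0.90), as did Jph2 (r = 0.80), and the 2 genes followed each other (r = 0.73). Among 18544 genes, the 3 most like Pln were Mcam (r = 0.95), Acta2 (0.90), and Myh11 (0.88), the last 2 of them contractile genes of smooth muscle. The 3 most like Jph2 were Myh11 (0.86), Mcam (0.81), and Smtn (0.81).

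The ryanodine receptor genes followed neuron markers. Ryr2 had r = 0.85 and Ryr3 r = 0.62 with the neuron list, beside -0.10 and -0.26 with the smooth muscle list, and r = 0.65 with each other. Notch3+/+ replicate 3 had both the highest Ryr2 (82.8 CPM) and the highest neuron marker sum of its group (941.8 CPM), and TgNotch3R169C replicate 5 likewise (76.4 and 1066 CPM). The genes most like Ryr2 were Ppfia2 (r = 0.94), Cacna1e (0.92), and Tnr (0.92), and those most like Ryr3 were Npffr1 (0.86), Frmpd3 (0.81), and Sv2a (0.81). Ppfia2, Cacna1e, and Sv2a encode proteins of the synapse or of neuronal calcium channels.

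Casq2 and Itpr1 followed Purkinje cell markers. Their r with that list was 0.80 and 0.67 over 32 libraries, and 0.64 and 0.46 over the 30 libraries left without WT replicates 6 and 7. Genes most like Casq2 included Car8 (r = 0.82) and Rgs8 (0.80), and Car8 is itself one of the 4 Purkinje cell markers used. In the Notch3-/- contrast all 4 Purkinje cell markers had negative log2 fold changes (median -0.91, 0 called), and their sums were 9.09 to 34.8 CPM in Notch3-/- and 9.92 to 91.7 CPM in Notch3+/+ libraries. With the Purkinje cell markers as a covariate, the log2 fold change of Casq2 in that contrast was -1.41, and the part of these cells in the Casq2 values was not tested beyond this fit. Genes most like Itpr1 included Icmt (r = 0.92) and Cep76 (0.78), and Itpr1 also followed Atp2a2 (r = 0.57) and the choroid plexus markers (r = 0.51). Without WT replicates 6 and 7, the r of Itpr1 with the choroid plexus markers was 0.67, above that with the Purkinje cell markers.

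The remaining genes had other partners. Atp2a3, the pump of endothelium and blood cells, followed the endothelial markers (r = 0.65), and the genes most like it were Rgs3 (0.88), Ptprb (0.85), a phosphatase of endothelial cells, and Ces2b (0.83). Atp2a2, expressed in almost every cell type, had an r of at most 0.37 in size with the marker lists, and its closest genes were Gm15459 (0.85), Sel1l (0.84), which serves the degradation of misfolded reticulum proteins, and Nus1 (0.83), which serves glycan synthesis there. Stim1 was closest to Dym (0.77), Car14 (0.73), and Tcn2 (0.71), and Casq1 to Moxd1 (0.70), Vit (0.64), and Gm36356 (0.59).

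**Figure D4:**
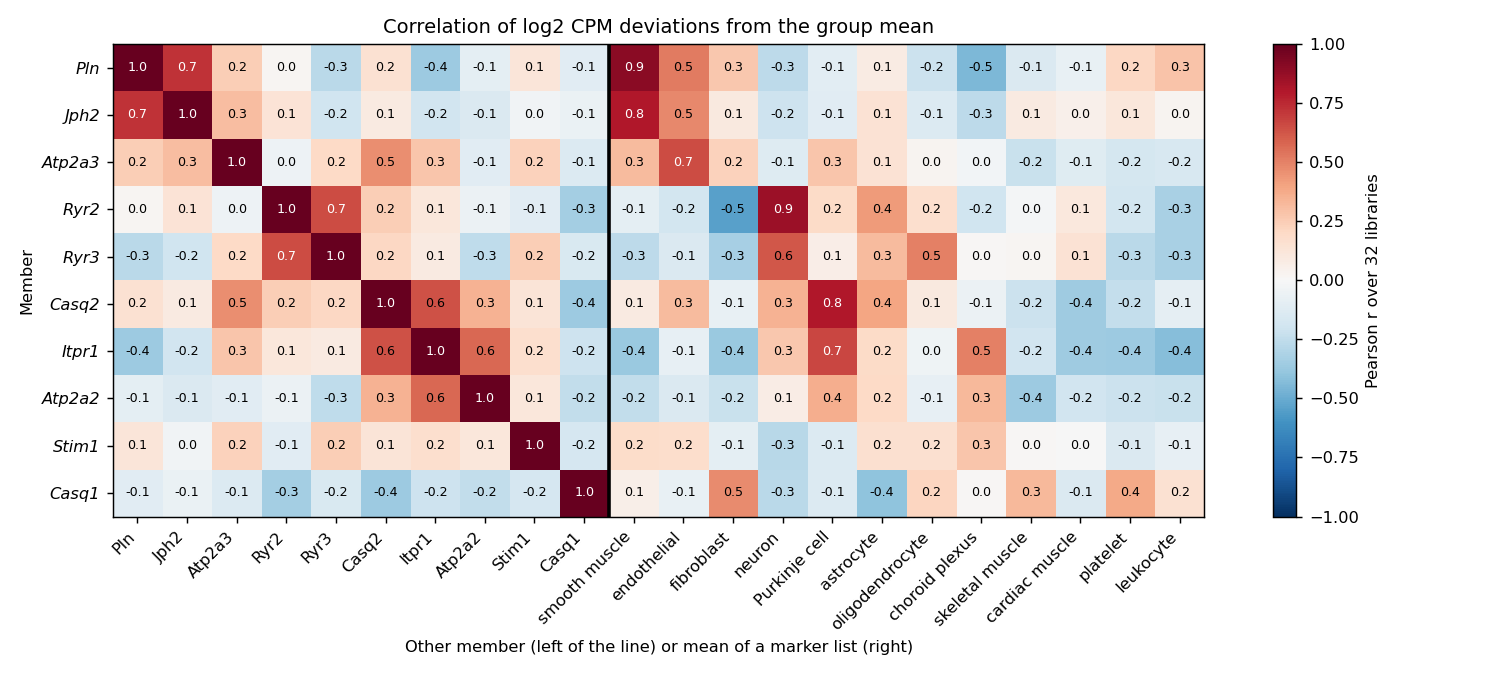
Pearson correlation over 32 libraries of log2 CPM deviations from the group mean, between the 10 genes (left of the line) and with the mean of 12 marker lists (right of it). Red is positive and blue negative. Pln and Jph2 pair with smooth muscle (0.90 and 0.80), Ryr2 and Ryr3 with neurons (0.85 and 0.62), Casq2 and Itpr1 with Purkinje cells (0.80 and 0.67), and Atp2a3 with endothelium (0.65). Without WT replicates 6 and 7 (not drawn), Itpr1 has 0.46 with Purkinje cells and 0.67 with choroid plexus.

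**Figure D5:**
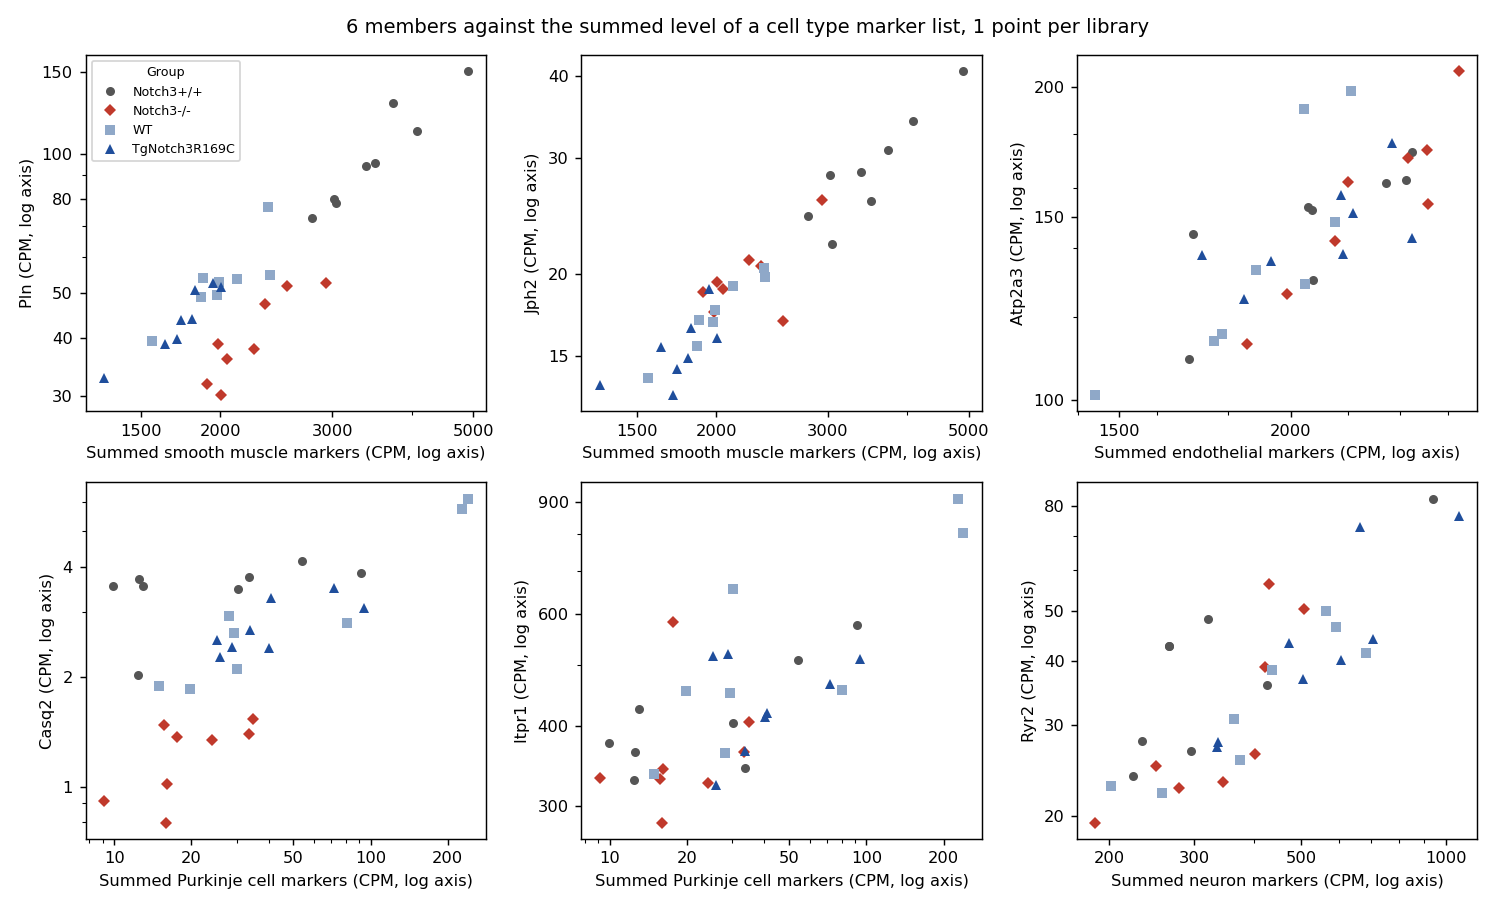
Level of 6 of the genes against the summed level of a marker list in the same library, both in CPM on log axes, with 1 point per mouse. Notch3-/- and Notch3+/+ points barely overlap along the axis of smooth muscle sums in the panels of Pln and Jph2, and 2 WT libraries stand at the upper right of both Purkinje cell panels.

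A list of 39 other genes of the store and of calcium transport was taken from the same fits. It was chosen with earlier results of these data known. In each of the 3 comparisons of 2 groups, 36 passed the filter, while Sln, Strit1, and Jsrp1 did not. In Notch3-/- arteries, beside 0.452% of all genes tested called lower, 1 of 36 was called, lower. It was Srl, which encodes sarcalumenin, a calcium-binding protein of the reticulum, at 7.50 to 13.7 CPM in Notch3+/+ and 3.21 to 9.12 CPM in Notch3-/- libraries. Its log2 fold change was -1.06 (SE 0.19), and the ranges overlapped. In the same contrast 7 of 9 smooth muscle markers were called lower. With their score as a covariate the log2 fold change of Srl was -1.04 and was not called (edgeR adjusted p = 0.597). The marker sums of these 2 groups barely overlapped, so nothing is concluded from the lost call. In TgNotch3R169C arteries 0 of 36 were called by edgeR, beside 0.113% of all genes tested, and 1 by DESeq2. The interaction holds the Notch3-/- values, so it is given as a description here too. For Srl it was 1.05 (SE 0.23, 95% CI 0.57 to 1.52), called as the only 1 of 37 genes tested there, beside 0.35% of all genes. With no filter on low counts its adjusted p was 0.0513, and it was not called.

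Between the control groups 5 of the 36 were called lower in WT arteries and 0 higher, beside 4.05% and 3.87% of all genes tested. Trdn, which encodes triadin, the anchor of calsequestrin at the release channel, was 1.84 to 5.78 CPM in Notch3+/+ and 0.87 to 2.31 CPM in WT libraries, a log2 fold change of -1.23 (SE 0.26, edgeR adjusted p = 0.00945). Hrc, a histidine-rich calcium-binding protein of the store, had a log2 fold change of -0.43 (SE 0.10, edgeR adjusted p = 0.0142). Prkg1, the cGMP-dependent kinase that phosphorylates phospholamban, had -0.48 (SE 0.08, edgeR adjusted p = 0.00171), and Irag1, its substrate at the IP3 receptor, -0.33 (SE 0.08, edgeR adjusted p = 0.0237). Atp2b4, a plasma membrane calcium pump, had -0.25 (SE 0.05, edgeR adjusted p = 0.00573). The smooth muscle markers were lower in the same comparison, and with them as a covariate 0 of the 36 were called. Since the marker sums of the 2 control groups did not overlap, this fit cannot separate the markers from the group. Paralogs of the members, Atp2a1, Ryr1, Itpr2, Itpr3, Jph1, Jph3, Jph4, and Stim2, were called in no comparison. Among them the log2 fold change farthest from 0 was that of Ryr1 between the control groups (0.98, 95% CI 0.11 to 1.85, edgeR adjusted p = 0.151).

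The libraries were stranded, but the strand setting of the counting is not given in the sources used here. Overlapping neighbours on the opposite strand may therefore have affected some counts. Exons of Gm47644, on the opposite strand, cover 59.6% of the Pln exon bases, and those of Cep85l cover 5.11%. Gm47644 had 0 to 9 counts per library, beside 801 to 6031 for Pln. Opposite-strand genes also overlap 4.83% of the Ryr3 exon bases (Aven), 8.00% of Casq1 (Gm17224), and smaller parts of Atp2a2 and Itpr1. For these genes, whether the counting kept the 2 strands apart is not known.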

How the data were processed

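Stranded poly(A) libraries were made by the authors from flash-frozen arteries, and the deposited table holds unnormalized counts of reads for each Ensembl identifier. The submitters' processing notes name bcl2fastq 2.20.0.422, cutadapt 1.10, Bowtie2 2.2.8, STAR 2.5.3a, HTSeq 0.6.1p1 and mm39. Of the 55357 genes, 52081 were given a symbol by identifier. Each of the 32 columns was matched to a library by name.

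Counts were filtered (filterByExpr), normalized by TMM and tested with edgeR 4.0.16 (R 4.3.3) in fits of 2 groups, or of all 4 groups for the interaction. Benjamini-Hochberg adjusted p below 0.05 over all genes was called. The study used DESeq2's Wald test, run here as an alternative (DESeq2 1.42.0), as was limma 3.58.1 voom. Exon lengths and overlaps came from GENCODE vM21 (GRCm38), another build than mm39, and promoter windows from RefSeq. The fits were tested on simulated data. No 2 libraries of the same group were duplicates, and pairs from different groups were not checked in this way. Precision was limited by 8 mice per group and, for Casq1, by counts as low as 4. Controls were littermates of the mutants, but which mice shared a litter or a batch is not given in the sources used here, so p-values measure the spread between these libraries.

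The 10 genes, the 39 related genes and the marker lists were chosen with earlier results of these data known. Named genes are the 10, the related genes called in any comparison, their paralogs and Sln, and for each of the 10 the 3 genes with the highest correlation, of which 2 are not reported here. The 2 sets of libraries left out and the Purkinje cell covariate were chosen after the levels were seen. Samples, alternatives and covariates are given with the results.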

Additional observations from a re-analysis of the deposited data

Results flagged for a closer look

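For each of the 10 genes, the library at either end of each group of 8 was compared with its nearest neighbour relative to the full range of that group. Of 40 such groups 5 held a library that stood apart, where chance gives about 2. Pln in WT replicate 1 was 76.9 CPM with the next library at 54.6, a gap of 0.59 of the range. Casq2 in Notch3+/+ replicate 2 was 2.02 CPM, the lowest, with the next at 3.46 (0.67 of the range). Ryr2 in Notch3+/+ replicate 3 was 82.8 CPM with the next at 48.3 (0.59). Itpr1 in Notch3-/- replicate 8 was 583.5 CPM with the next at 405.8 (0.59), and this library is 1 of the 7 rich in choroid plexus markers. Jph2 in Notch3-/- replicate 1 was 25.9 CPM with the next at 21.0 (0.55). Causes were not tested.

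The change in TgNotch3R169C arteries differed from that in Notch3-/- arteries for 2 genes by the interaction in the fit of 4 groups. The difference was 1.03 on the log2 scale for Pln and 1.05 for Srl. This contrast holds the Notch3-/- values and is a description. Pln was not called without the 7 libraries rich in choroid plexus markers (difference 0.95), and Srl was not called with no filter on low counts (adjusted p = 0.0513 by edgeR). In the same contrast 8 of 9 smooth muscle markers had positive differences (median 0.40, 1 called), and with their score as a covariate the difference was 0.58 for Pln and 1.12 for Srl, both called. The pairs also differ in age and line, which cannot be told apart from genotype here.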

How the results depend on the processing

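Beside leaving out single libraries, each comparison was refitted with 2 other normalizations, 2 other filters on low counts, DESeq2, voom, 3 marker covariates, the replicate number as a block, all 4 groups in 1 fit, and without libraries that stand apart. In Notch3-/- arteries, 3 of the 10 genes were called with all libraries, 0 with the smooth muscle covariate, and 2 with the replicate block or without the choroid plexus-rich library, where Jph2 was not called (-0.55 and -0.54). Leaving out single libraries gave 2 to 3. The smooth muscle marker sums of these 2 groups barely overlapped, so nothing is concluded from the calls lost with that covariate. In TgNotch3R169C arteries 0 were called under any of these. Between the control groups 2 were called, 2 with each library left out, 0 with the smooth muscle covariate, and 1 without choroid plexus-rich libraries. The smooth muscle marker sums did not overlap between the control groups, so there that covariate cannot be separated from the group. The neuron covariate added Ryr2 (-0.45). In the interaction 1 was called, 2 (Pln and Casq2) with DESeq2, voom, the replicate block, the neuron or Purkinje cell covariate or without WT replicates 6 and 7, and 0 without choroid plexus-rich libraries.

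Of the 39 related genes, 1 was called in Notch3-/- arteries, 2 with DESeq2 or the Purkinje cell covariate, 0 with the smooth muscle covariate, and 1 to 2 with single libraries left out. In TgNotch3R169C arteries 0 were called, and 1 with DESeq2. Between the control groups the 5 became 2 with the replicate block, 0 with the smooth muscle covariate, 8 with the neuron covariate, 3 with the Purkinje cell covariate or without choroid plexus-rich libraries, and 4 to 6 with single libraries left out. In the interaction the 1 became 0 without a filter and 2 with DESeq2. These causes were not tested.

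Signs turned only for values that were not called, except Pln between the control groups (0.087 with the smooth muscle covariate). That covariate also turned Casq1 (-0.22) and Stim1 (0.10) in Notch3-/- arteries, Casq1 (-0.28), Atp2a2 (-0.21), Atp2a3 (0.14) and Itpr1 (-0.15) between the control groups, and Itpr1 (0.072) in the interaction. Without choroid plexus-rich libraries, Casq1 (0.029), Atp2a2 (0.109) and Atp2a3 (-0.023) turned in TgNotch3R169C arteries, Casq1 (-0.153) and Atp2a2 (-0.016) between the control groups, and Itpr1 (0.050) in the interaction. Casq2 in TgNotch3R169C arteries became 0.22 without WT replicates 6 and 7 and 0.017 with the Purkinje cell covariate. In the interaction, Atp2a3 became 0.010 with voom, 0.0019 with the replicate block, and 0.16 without WT replicates 6 and 7, and Itpr1 0.13 without them. Leaving out single libraries gave -0.031 to 0.308 for Casq1 and, in TgNotch3R169C arteries, -0.119 to 0.034 for Atp2a2 and -0.013 to 0.129 for Atp2a3. For Casq1 between the control groups the range was -0.10 to 0.26.

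The replicate numbers did not pair the mice: same-numbered libraries correlated at -0.14 to 0.34 in the Notch3-/- comparison, -0.25 to 0.42 in the TgNotch3R169C comparison and -0.19 to 0.24 between the control groups, with 3, 1 and 2 of 8 numbers matching best. Casq1 is limited by its low counts and had no value in 3 of the 4 comparisons when at least 10 counts in every library were asked for, and no alternative separates age from line.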
